A study of Mus musculus with 4 samples.

Results

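Collagens are the main fibrous proteins of cartilage and bone, and the genes described here are those that encode their alpha chains. All rows of the deposited count table whose gene name is Col, a number, a and a number were taken, which gave 44 genes of 55228 in the table. They cover 11 fibrillar chains, 9 fibril-associated (FACIT) chains, 2 network-forming chains of collagen VIII, the hypertrophic chain Col10a1, 6 basement membrane chains of collagen IV, 2 multiplexin chains, 6 beaded filament chains of collagen VI, the anchoring fibril chain Col7a1, 4 transmembrane chains and 2 others. The series holds 4 RNA-seq libraries of cells taken from the rib cartilage at embryonic stage E17.5 in C57BL/6 mice. Wild type (WT) and the Trim28 knockout (Trim28 KO) have 2 libraries each. How Trim28 was deleted, in which cells, and the litter, sex and batch are not in the labels. Since nothing ties each library to an embryo of its own, the p-values cover only the spread among these libraries. TRIM28 is a repressor of transcription that binds no DNA itself and is brought there by zinc finger proteins, and the comparison asks which transcripts differ in rib cartilage when it is lost.

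Each collagen molecule is a helix wound from alpha chains that are rich in glycine and proline. Chondrocytes secrete thin fibrils of collagen II, which contain collagen XI and carry collagen IX on their surface, and on hypertrophy they switch to collagen X. Bone, tendon and perichondrium are instead built of collagen I fibrils with collagens III and V, on which collagens XII and XIV sit. Collagen VI forms beaded filaments in the coat around each chondrocyte, and collagen IV forms the sheet of basement membranes around vessels, nerves and muscle fibres.

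Library totals ran from 18616896 to 20082123 counts. Trim28 stood at 225 and 185 CPM in WT against 51.0 and 54.5 CPM in Trim28 KO (CPM is the usual depth-scaled count, here with TMM scaling factors). Its log2 fold change was -1.96 ± 0.20 (± SE here and below, 2 libraries a genotype), with an adjusted p = 2.28e-07 in edgeR's quasi-likelihood fit, in the direction of the labels. Chondrocyte markers were abundant in every library. Acan, the cartilage proteoglycan aggrecan, stood at 2732 and 2813 CPM in WT against 3558 and 4578 CPM in Trim28 KO, and the 12 chondrocyte markers summed to 22735 and 21786 CPM in WT against 13569 and 16614 CPM in Trim28 KO. Of those markers 5 fell and none rose (41.7% called, against 17.4% of all genes tested), and the fitted change was below 0 in 10 of the 12. Acan was 1 of the 2 above 0 and was not called. The steepest fall was that of Ucma, from 5404 and 4573 CPM in WT to 755 and 1064 CPM in Trim28 KO (-2.45 ± 0.26). Xist was at 357 CPM in Trim28 KO 2 and at 0.807 to 0.977 CPM in the other libraries, so the Trim28 KO libraries did not match in this X-linked transcript. Its part in any result was not tested. In a bulk sample, fewer cells of a type and less RNA per cell cannot be told apart.

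The 44 collagen genes took 19.9% and 15.5% of all counts in WT and 13.0% and 16.4% in Trim28 KO (95% Wilson intervals no wider than 0.0349 percentage points, counting error only). The total thus overlapped between the genotypes. Its makeup differed. Col2a1, the chain of cartilage fibrils, held 37.6% and 36.4% of the collagen counts in WT and 47% and 45.4% in Trim28 KO. Both chains of collagen I together held 26.3% and 23.1% in WT and 13.5% and 14.1% in Trim28 KO. For collagen VI the values were 2.84% and 3.33% in WT and 6.30% and 6.36% in Trim28 KO, and for collagen X 1.87% and 2.79% against 1.39% and 1.48%. In each of these comparisons both Trim28 KO libraries lay on the same side of both WT libraries. Parts of 1 total are not independent, because a smaller share of collagen I raises the other shares. With 2 libraries against 2, an exact two-sided permutation test cannot fall below 1 in 3, so these shares are given without a test.

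**Figure D1:**
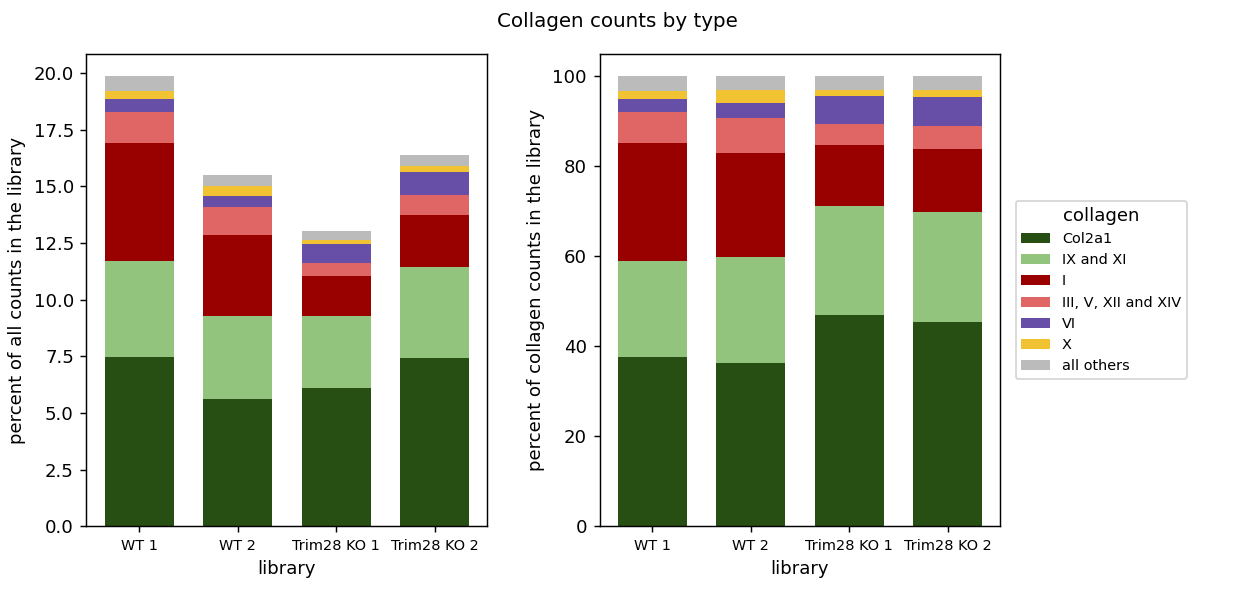
Counts of collagen genes in each of the 4 libraries, stacked by collagen type, as a percent of all counts (left) and of collagen counts (right). The red segments of collagen I are shorter and the purple segments of collagen VI longer in both Trim28 KO libraries, while the total height overlaps between genotypes (19.9% and 15.5% in WT, 13.0% and 16.4% in Trim28 KO).

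Collagen levels also moved together between the libraries of 1 genotype. Of the 42 collagens tested, 31 were higher in WT 1 than in WT 2, with a median ratio of 1.17, and 37 were higher in Trim28 KO 2 than in Trim28 KO 1, with a median ratio of KO 1 to KO 2 of 0.762. Over all 16639 genes tested the same medians were 1 and 0.982. The libraries of 1 genotype therefore differed in their collagen genes together.

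Compared per kilobase of exon, so that genes of different length can be ranked, collagen II led in both genotypes. In WT the order of the mean levels began with Col2a1 (7301 CPM per kb), Col1a1 (4448), Col9a3 (2315), Col9a1 (1857) and Col9a2 (1585), followed by Col11a2 (1363), Col10a1 (1312) and Col1a2 (1303). In Trim28 KO it began with Col2a1 (7189.9), Col9a3 (2115), Col1a1 (1535), Col9a2 (1425), Col9a1 (1385) and Col11a2 (1283). Neighbours in these orders often overlapped between libraries. In CPM per kb, Col11a2 stood at 1556 and 1169 in WT against 1064 and 1502 in Trim28 KO, and Col1a2 stood at 1469 and 1137 in WT against 688 and 896 in Trim28 KO. Col1a1 and Col9a3 did not overlap within either genotype and had opposite orders, with Col1a1 at 5688 and 3209 in WT against 1257 and 1814 in Trim28 KO and Col9a3 at 2664 and 1966 in WT against 1984 and 2245 in Trim28 KO on the same scale.

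**Figure D2:**
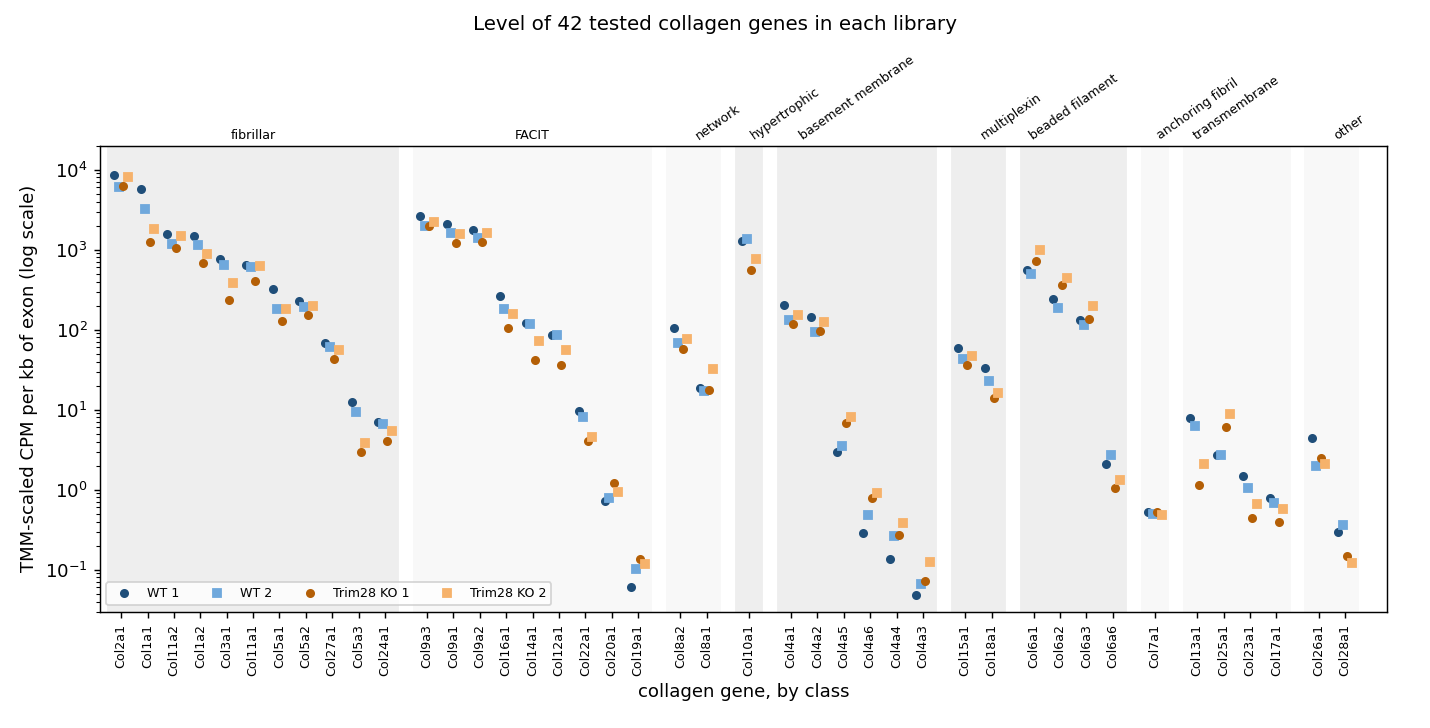
TMM-scaled CPM per kb of exon (log axis) for the 42 tested collagen genes, grouped by class, with 1 point per library (WT blue, Trim28 KO orange). WT points lie above Trim28 KO points for Col1a1, Col3a1, Col5a3, Col10a1 and Col13a1, and below them for Col4a5, Col6a1, Col6a2 and Col25a1.

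Of the 44 members, 42 passed the filter on low counts and were tested in the fit over all genes. Calls here are adjusted p-values under 0.05 (edgeR, Benjamini-Hochberg over all 16639 genes tested), and only called genes are said to have risen or fallen. In Trim28 KO 12 collagens fell and 5 rose, together 40.5% of those tested, where 17.4% of all genes tested were called. Falls made up 28.6% of the collagens tested (8.77% of all genes) and rises 11.9% (8.64% of all genes). The median log2 fold change was -0.35 over the tested collagens and -0.02 over all genes. The fitted change was below 0 in 31 of 42 collagens (73.8%, against 51.9% of all genes), and the genotypes did not overlap in 29 (69.0%, against 58.0%). Another 4 collagens, Col1a2, Col5a1, Col24a1 and Col28a1, had an unadjusted p under 0.05 but were not called. When Trim28 KO 1 was left out, only 4 collagens were called lower and 6 higher, and without Trim28 KO 2 12 lower and 2 higher. Calls over all genes dropped too, from 1460 lower and 1438 higher to 577 lower and 708 higher without Trim28 KO 1, and to 807 lower and 906 higher without Trim28 KO 2. The 6 called collagens that kept their call whichever library was left out were Col1a1, Col4a5, Col5a3, Col13a1, Col22a1 and Col25a1. Tested against a minimum change of 2-fold, Col5a3 and Col13a1 were lower (adjusted p = 0.0155 and 0.00422) and no collagen was higher.

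**Figure D3:**
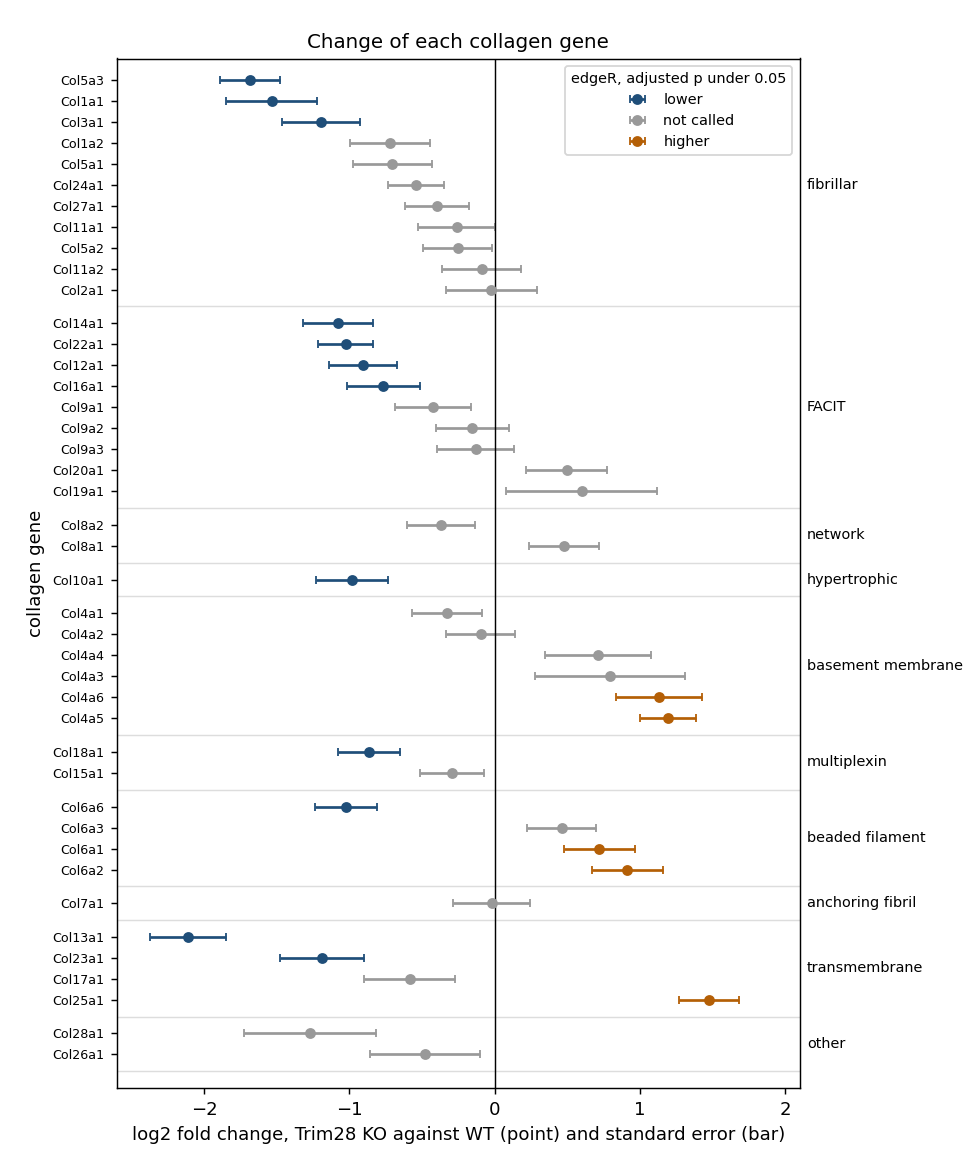
Log2 fold change of Trim28 KO against WT for the 42 tested collagen genes with the standard error from edgeR's fit, by class. The 12 called falls (blue) are spread over the fibrillar, FACIT, hypertrophic, multiplexin, beaded filament and transmembrane classes, and the 5 called rises (orange) are Col4a5, Col4a6, Col6a1, Col6a2 and Col25a1.

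Among the fibrillar chains, those of the cartilage fibril were not called. Col2a1, on chromosome 15 (97975602 to 98004695, minus strand of GRCm38), had the highest mean CPM of any gene in both genotypes. It stood at 79526 and 55438 CPM in WT against 58622 and 74289.5 CPM in Trim28 KO, and the ranges overlapped (log2 fold change of -0.02 ± 0.31, with a 95% interval of -0.67 to 0.63). Its sign turned under other settings. Collagen XI limits the width of collagen II fibrils. Its chain Col11a1 stood at 8141 and 7659 CPM in WT against 5160.1 and 8023 CPM in Trim28 KO and Col11a2 at 10699 and 8039 CPM in WT against 7312 and 10321 CPM in Trim28 KO. In both genes Trim28 KO 1 was below the other 3 libraries, and the log2 fold changes were -0.26 ± 0.27 (95% interval -0.81 to 0.29) and -0.09 ± 0.27 (95% interval -0.65 to 0.47). Col27a1, a minor fibrillar chain of cartilage, was not called either (-0.40 ± 0.22, adjusted p = 0.232). Both Trim28 KO libraries were below both WT libraries (886 and 785 CPM in WT against 554 and 717 CPM in Trim28 KO). In 58.0% of all genes tested the genotypes did not overlap.

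Among the fibrillar chains of bone and fibrous tissue, Col1a1, Col3a1 and Col5a3 fell in Trim28 KO. Col1a1, the main chain of bone collagen, on chromosome 11 (94936224 to 94953042, plus strand), stood at 37330.3 and 21059 CPM in WT against 8247 and 11905 CPM in Trim28 KO. The fall was 2.90-fold (-1.53 ± 0.32 on the log2 scale, adjusted p = 0.00145), and every Trim28 KO library was below every WT library, although WT 1 and WT 2 themselves stood far apart. Its adjusted p without Trim28 KO 1 was 0.0497. Its partner Col1a2, on chromosome 6, stood at 18254 and 14125 CPM in WT against 8547 and 11132 CPM in Trim28 KO. Here too the genotypes did not overlap, as in 58.0% of all genes tested, but the change was smaller and was not called (-0.72 ± 0.27, adjusted p = 0.0751, and 0.00841 by DESeq2). Col3a1, the fibrillar chain of soft connective tissue, fell 2.29-fold, from 7409 and 6323 CPM in WT to 2295 and 3709 CPM in Trim28 KO (log2 fold change of -1.19 ± 0.27, adjusted p = 0.00275, and 0.0754 without Trim28 KO 1). Col5a2, which lies 24614 bases from Col3a1 on chromosome 1 in the opposite direction, stood at 2222 and 1842 CPM in WT against 1482 and 1923 CPM in Trim28 KO and was not called (-0.26 ± 0.23, 95% interval -0.74 to 0.23).

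Collagen V starts the assembly of collagen I fibrils. Its chain Col5a1 stood at 2739 and 1566 CPM in WT against 1114 and 1530.4 CPM in Trim28 KO and was not called (-0.70 ± 0.27, adjusted p = 0.0828). It was called lower by edgeR's exact test (adjusted p = 0.0472), when low counts were not filtered (0.0292) and without WT 2 (0.00926). WT 1 alone was high, and the log2 fold change was -0.22 without it. The rare chain Col5a3 was the fibrillar member with the steepest fall. It went from 86.2 and 62.9 CPM in WT to 20.1 and 26.3 CPM in Trim28 KO, a 3.22-fold fall (log2 fold change of -1.69 ± 0.21, adjusted p = 3.57e-06) that was called whichever library was left out. Col24a1, a minor fibrillar chain described in bone, stood at 53.8 and 50.7 CPM in WT against 30.8 and 41.0 CPM in Trim28 KO and was just short of a call (-0.54 ± 0.19, adjusted p = 0.0538, but 0.0422 under upper-quartile scaling and 0.0358 with a minimum of 5 CPM). In all, 3 of 11 fibrillar chains fell and none rose (27.3% called, against 17.4% of all genes tested). All 11 had a fitted change below 0, from -1.69 to -0.02.

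FACIT chains bind to the surface of fibrils and bridge them to other matrix. Col9a1, Col9a2 and Col9a3, which together form the collagen IX of cartilage fibrils, were not called. Col9a1 stood at 10575 and 8251 CPM in WT against 6148 and 7895 CPM in Trim28 KO and was lower in both Trim28 KO libraries than in either WT library (-0.42 ± 0.26, adjusted p = 0.299). Such a lack of overlap, in either direction, was seen in 58.0% of all genes tested. The ranges of Col9a2 (-0.15 ± 0.25) and Col9a3 (-0.13 ± 0.26) overlapped between genotypes. Of the other 6 FACIT chains 4 fell, so that 44.4% of the class was called, against 17.4% of all genes tested. Col14a1, a FACIT of dense connective tissue, stood at 849.6 and 831 CPM in WT against 293 and 504 CPM in Trim28 KO (-1.08 ± 0.24, adjusted p = 0.00320). Its WT libraries were nearly equal and the Trim28 KO libraries both lower, with KO 1 the lowest. Col12a1, its relative in bone and tendon, showed the same order, at 1301 and 1314 CPM in WT against 549 and 846 CPM in Trim28 KO (-0.91 ± 0.23, adjusted p = 0.00833). Col22a1, which is found where muscle meets tendon, went from 87.9 and 75.4 CPM in WT to 37.7 and 42.5 CPM in Trim28 KO (-1.03 ± 0.19, adjusted p = 4.42e-04). This was the FACIT with the smallest p-value, and it was called whichever library was left out. Col16a1 stood at 1797 and 1214 CPM in WT against 703 and 1069 CPM in Trim28 KO and fell by the narrowest margin (-0.77 ± 0.25, adjusted p = 0.0405). Without Trim28 KO 1 the adjusted p was 0.100 for Col14a1, 0.175 for Col12a1 and 0.368 for Col16a1, and without WT 1 it was 0.287 for Col16a1. By limma-voom Col16a1 was not called either (adjusted p = 0.0600). Col19a1, with 8 to 18 counts per library, and Col20a1, with 71 to 122, were rare and not called (0.60 ± 0.52 and 0.50 ± 0.28). Col19a1 ends 9205 bases from the end of Col9a1.

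Col10a1 encodes the collagen that chondrocytes make once they turn hypertrophic, before bone replaces them. The gene lies on chromosome 10 (34389981 to 34397085, plus strand). It stood at 3966 and 4250.2 CPM in WT against 1737 and 2423 CPM in Trim28 KO, a 1.98-fold fall (log2 fold change of -0.98 ± 0.25, adjusted p = 0.00677). The WT libraries were within a narrow range and both Trim28 KO libraries were below it, KO 1 more than KO 2. It was not called without Trim28 KO 1 (adjusted p = 0.114). Of the 8 other hypertrophic chondrocyte markers, 7 fell and none rose (87.5% called, against 17.4% of all genes tested). The transcription factor Runx2, which acts on Col10a1 in hypertrophic cells, stood at 86.4 and 93.3 CPM in WT against 34.2 and 43.1 CPM in Trim28 KO (-1.22 ± 0.20, adjusted p = 8.84e-05), and the collagenase Mmp13 at 494 and 597 CPM in WT against 82.3 and 99.9 CPM in Trim28 KO (-2.58 ± 0.22). The part of these markers' cells in the Col10a1 values was not tested. The promoters of Col10a1 and Col3a1, which both fell, are shown with the letters TATAAA, read here as a TATA box, in capitals. The stretches end next to the RefSeq start of each gene, read 5′ to 3′ on the gene's strand, and lie on GRCm38.p6 at chr10:34389861-34389980 on the plus strand (Col10a1) and chr1:45311418-45311537 on the plus strand (Col3a1).
Col10a1: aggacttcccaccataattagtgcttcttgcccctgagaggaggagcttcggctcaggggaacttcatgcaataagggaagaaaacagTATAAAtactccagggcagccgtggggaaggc
Col3a1: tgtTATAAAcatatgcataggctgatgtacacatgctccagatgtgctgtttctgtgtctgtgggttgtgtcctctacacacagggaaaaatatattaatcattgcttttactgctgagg
These letters begin 32 bases before the start of Col10a1 and 117 bases before that of Col3a1. They were in 14.3% of the collagen promoters searched, against 13.0% of all promoters. Of the 5 collagens with these letters, Col3a1, Col10a1 and Col13a1 fell, and Col11a2 and Col17a1 were not called. Falls made up 28.6% of all collagens tested and 8.77% of all genes tested. Whether the letters bear on the change was not tested.

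Col8a1 and Col8a2 encode the short chains of collagen VIII, a relative of collagen X that forms sheets under endothelia. Neither was called. Col8a1 stood at 146 and 134 CPM in WT against 139 and 251 CPM in Trim28 KO, where only Trim28 KO 2 was apart from the rest (0.48 ± 0.24), and without Trim28 KO 1 it was called higher (adjusted p = 0.0334). Col8a2 stood at 474 and 302 CPM in WT against 255 and 346 CPM in Trim28 KO with overlapping ranges (-0.37 ± 0.23).

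The collagen IV genes lie in head-to-head pairs that share the stretch between their starts. Of these genes only Col4a5 and Col4a6 were called. Col4a1 and Col4a2, the chains of nearly all basement membranes, start within 21 bases of each other on chromosome 8. Col4a1 stood at 1523 and 998 CPM in WT against 871 and 1139.6 CPM in Trim28 KO (-0.33 ± 0.24) and Col4a2 at 942 and 613 CPM in WT against 629 and 827 CPM in Trim28 KO (-0.10 ± 0.24). WT 1 was the highest library for both, and the ranges overlapped between genotypes. Col4a5 and Col4a6, on chromosome X, start 1309 bases apart, and both rose. Col4a5 went from 20.2 and 23.5 CPM in WT to 45.5 and 54.5 CPM in Trim28 KO, a 2.29-fold rise (log2 fold change of 1.20 ± 0.19, adjusted p = 8.74e-05). Col4a6 was rarer, at 2.28 and 3.83 CPM in WT against 6.22 and 7.22 CPM in Trim28 KO, and rose 2.19-fold (1.13 ± 0.29, adjusted p = 0.00880). For each of these X-linked genes both Trim28 KO libraries exceeded both WT libraries. Trim28 KO 1 and Trim28 KO 2 differed in Xist (0.977 and 357 CPM), and the part of Xist in these values was not tested. Without WT 1 or Trim28 KO 2, Col4a6 was not called (adjusted p = 0.0918 and 0.0955). Col4a3 and Col4a4, on chromosome 1 with starts 72 bases apart, were the rarest pair, with 9 to 25 and 27 to 82 counts per library. Their fitted changes of 0.79 ± 0.52 and 0.71 ± 0.36 were not called. Of the exon bases of Col4a3, 5.65% are shared with a gene on the opposite strand, and how reads there were counted is not stated. The same holds for 6.07% of Col9a3, 3.39% of Col6a4 and 2.50% of Col5a1. In all, 2 of 6 collagen IV chains rose and none fell (33.3% called, against 17.4% of all genes tested).

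Upstream sequences of Col4a5 and Col4a6 are shown because this pair rose together. The genes face away from each other. The stretches lie outside annotated exons, that of Col4a5 ending 35 bases before its RefSeq start, at chrX:141475265-141475384 on the plus strand for Col4a5 and chrX:141474077-141474196 on the minus strand for Col4a6 on GRCm38.p6. Capitals mark a GC box, the letters GGGCGG or their complement CCGCCC.
Col4a5: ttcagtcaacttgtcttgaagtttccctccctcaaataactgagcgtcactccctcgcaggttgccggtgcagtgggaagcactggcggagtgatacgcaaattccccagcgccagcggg
Col4a6: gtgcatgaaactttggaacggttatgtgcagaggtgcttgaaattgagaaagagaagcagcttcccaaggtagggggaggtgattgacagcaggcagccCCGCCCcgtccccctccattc
The stretch of Col4a6 holds 1 GC box, 21 bases before its start, and the stretch of Col4a5 holds none of the motifs searched, although a GC box and a CCAAT box lie within the 250 bases before its start.

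Collagens XV and XVIII are the multiplexins, which carry sugar chains and sit at basement membranes. Col18a1, whose end fragment is the vessel inhibitor endostatin, went from 231 and 159 CPM in WT to 99.0 and 115 CPM in Trim28 KO and fell (-0.86 ± 0.21, adjusted p = 0.00579). Without WT 1 or Trim28 KO 1 it was not called (adjusted p = 0.110 and 0.118). Col15a1 was not called, at 374 and 269.6 CPM in WT against 227 and 298 CPM in Trim28 KO (-0.29 ± 0.22). Of 8 endothelial markers measured in the same libraries none was called, and their sums were 546 and 459 CPM in WT against 399 and 448 CPM in Trim28 KO.

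Of the 4 collagen VI chains tested, 2 rose and 1 fell in Trim28 KO (75% called, against 17.4% of all genes tested). Col6a2 stood at 2016 and 1539 CPM in WT against 3019 and 3682 CPM in Trim28 KO and rose 1.89-fold (log2 fold change of 0.91 ± 0.24, adjusted p = 0.0101). Col6a1, its neighbour on chromosome 10 with 85161 bases between the genes, stood at 2406 and 2151 CPM in WT against 3184 and 4327 CPM in Trim28 KO and rose 1.65-fold (0.72 ± 0.24, adjusted p = 0.0432). For both genes each Trim28 KO library exceeded each WT library. Col6a3, the large chain that completes the molecule, on chromosome 1, stood at 1563 and 1359 CPM in WT against 1637 and 2386 CPM in Trim28 KO. Its groups did not overlap, as in 58.0% of all genes tested, but Trim28 KO 1 was only just above WT 1. Col6a3 was not called (0.46 ± 0.24, 95% interval -0.03 to 0.96). Without WT 2 the adjusted p was 0.217 for Col6a1 and 0.136 for Col6a2, and without Trim28 KO 2 it was 0.252 and 0.0721. With all 4 libraries Col6a1 was also not called under upper-quartile scaling, with a minimum of 5 CPM in 2 libraries or by limma-voom (adjusted p = 0.0517, 0.0575 and 0.0591). Col6a6, a chain that can replace Col6a3, went the other way, from 19.1 and 25 CPM in WT to 9.56 and 12.1 CPM in Trim28 KO (-1.03 ± 0.21, adjusted p = 0.00134, and 0.0640 without Trim28 KO 1). Its neighbours on chromosome 9 were too rare to test. Col6a5 had 6, 7, 3 and 12 counts in WT 1, WT 2, Trim28 KO 1 and Trim28 KO 2, and Col6a4 had 0, 1, 0 and 1. A count of 0 allows up to 3 counts, which is 0.159 CPM for WT 1 and 0.154 for Trim28 KO 1.

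Transmembrane collagens are shed from the cell surface and were rare, but they held the largest fall and the largest rise among all members. Col13a1, on chromosome 10 (61838236 to 61979108, minus strand), encodes a membrane collagen of cell contacts and nerve-muscle junctions. It went from 36.5 and 28.6 CPM in WT to 5.30 and 9.77 CPM in Trim28 KO, a 4.32-fold fall (log2 fold change of -2.11 ± 0.26, adjusted p = 3.91e-05). Both Trim28 KO libraries were far below both WT libraries, and the call held whichever library was left out. Col23a1 fell from 8.43 and 6.00 CPM in WT to 2.57 and 3.76 CPM in Trim28 KO (-1.19 ± 0.29, adjusted p = 0.00543), but not without WT 1 or Trim28 KO 1 (adjusted p = 0.0788 and 0.117). Col25a1, on chromosome 3 (130131501 to 130599877, plus strand), encodes a membrane collagen best known from neurons. It rose from 35 and 35.9 CPM in WT to 80.2 and 117 CPM in Trim28 KO (log2 fold change of 1.47 ± 0.21, adjusted p = 1.58e-05). The WT libraries were nearly equal and both Trim28 KO libraries were higher, a call that held whichever library was left out. Col17a1, a collagen of epithelial attachment, had 46 to 88 counts per library and was not called (-0.59 ± 0.31).

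The upstream stretches of Col13a1 and Col25a1 are shown because these genes changed most, in opposite directions. They lie at chr10:61979109-61979228 on the minus strand for Col13a1 and chr3:130180725-130180844 on the plus strand for Col25a1 on GRCm38.p6, and each ends next to a RefSeq start, which for Col25a1 lies inside the GENCODE gene. Capitals again mark motifs found.
Col13a1: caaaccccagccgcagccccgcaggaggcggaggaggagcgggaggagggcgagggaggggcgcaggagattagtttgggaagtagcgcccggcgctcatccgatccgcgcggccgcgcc
Col25a1: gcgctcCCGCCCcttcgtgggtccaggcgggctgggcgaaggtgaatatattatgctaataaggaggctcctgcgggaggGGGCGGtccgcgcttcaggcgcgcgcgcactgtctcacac
Col25a1 holds 2 GC boxes, and the stretch of Col13a1 holds none of the motifs searched, although a TATA box lies further upstream.

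Of the 44 collagen genes, 35 had a start in the RefSeq promoter table (GRCm38.p6), and those of Col1a1 and Col2a1 were not matched. In the 250 bases before the start, both strands were searched for 6 short motifs, none of which overlapped in the stretches printed. The TATA box was read as TATAAA and the CCAAT box by its own letters. The GC box was read as GGGCGG and the core bound by RUNX factors as ACCACA. For SOX factors the core AACAAT was taken. For AP-1 it was TGANTCA, where N is any base. A GC box was in 21 of the 35 (60.0%), against 33.0% of 27026 promoters of all genes. The TATA box was in 5 (14.3%, against 13.0%) and the CCAAT box in 12 (34.3%, against 34.5%). The RUNX core was in 2 (5.7%, against 14.2%), the SOX core in 1 (2.9%, against 9.6%) and the AP-1 site in 1 (2.9%, against 6.9%). The promoters with a TATA box were those of Col3a1, Col10a1, Col11a2, Col13a1 and Col17a1. A match is only a run of letters, and no match says only that the letters are not in this window.

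The remaining members were rare. Col7a1, the anchoring fibril collagen of skin, had 98 to 104 counts in every library and the fitted change nearest to 0 (5.36 and 5.04 CPM in WT against 5.35 and 4.91 CPM in Trim28 KO, -0.02 ± 0.26). Col26a1 stood at 35.9 and 16.2 CPM in WT against 20.4 and 17 CPM in Trim28 KO, where WT 1 alone was high (-0.48 ± 0.38). Col28a1, with 12 to 35 counts per library, was lower in both Trim28 KO libraries but was not called (-1.27 ± 0.46, adjusted p = 0.0564). A lack of overlap between the genotypes was seen in 58.0% of all genes tested.

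**Figure D4:**
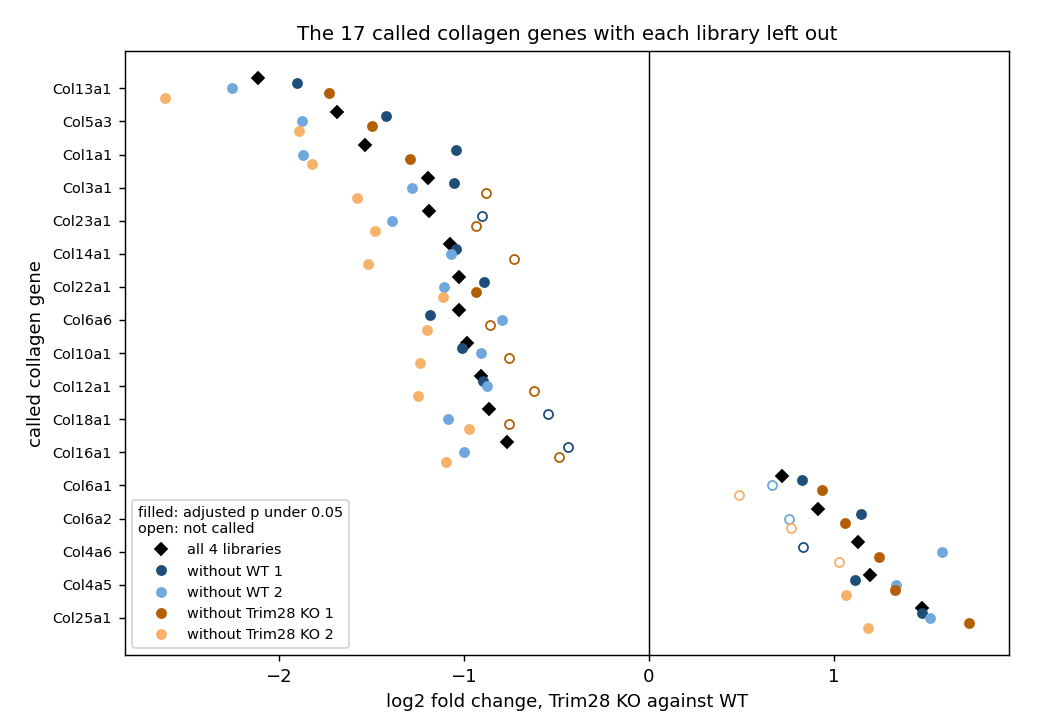
Log2 fold change of the 17 called collagen genes in the fit of all 4 libraries (black diamonds) and with each library left out (circles), filled where the adjusted p is under 0.05. Signs do not change, but only Col1a1, Col4a5, Col5a3, Col13a1, Col22a1 and Col25a1 stay filled throughout.

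Chains of 1 collagen are assembled together, so their balance was taken within each library, as the ratio of levels per kilobase. Col1a1 exceeded Col1a2 by 3.87 and 2.82 times in WT and by 1.83 and 2.03 times in Trim28 KO. The exon lengths used, 6563 bases for Col1a1 and 12426 for Col1a2, cover all annotated exons of a gene, which a single transcript need not hold. These ratios therefore cannot be set against the protein, which takes 2 Col1a1 chains for 1 Col1a2. Only their shift between genotypes is read here. The ratio was lower in both Trim28 KO libraries than in both WT libraries. Within collagen IX, Col9a1 stood to Col9a2 at 1.18 and 1.17 in WT against 0.972 and 0.973 in Trim28 KO, with libraries of a genotype closer to each other than to the other genotype. Within collagen IV, Col4a1 to Col4a2 went likewise from 1.43 and 1.44 to 1.23 and 1.22. In these collagen IX and collagen IV ratios the libraries of a genotype matched closely, which those of collagen I in WT did not. Col6a2 stood to Col6a3 at 1.85 and 1.63 in WT against 2.65 and 2.22 in Trim28 KO. For Col8a1 to Col8a2 the ratios were 0.176 and 0.254 in WT and 0.311 and 0.416 in Trim28 KO. The ratios of Col4a5 to Col4a6 (7.26 to 10.5), Col4a3 to Col4a4, Col9a2 to Col9a3 and Col11a1 to Col11a2 overlapped between the genotypes. The ratios of Col5a1 to Col5a2, Col9a1 to Col9a3, Col6a1 to Col6a2 and Col6a1 to Col6a3 did not overlap either. Their mean log2 ratios shifted by -0.40, -0.31, -0.21 and 0.27, against -0.27 for Col9a1 to Col9a2 and -0.23 for Col4a1 to Col4a2. Separation of 2 libraries from 2 is common, since the levels of 58.0% of all genes tested did not overlap. Ratios of 13 pairs were taken, and they are given without a test.

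**Figure D5:**
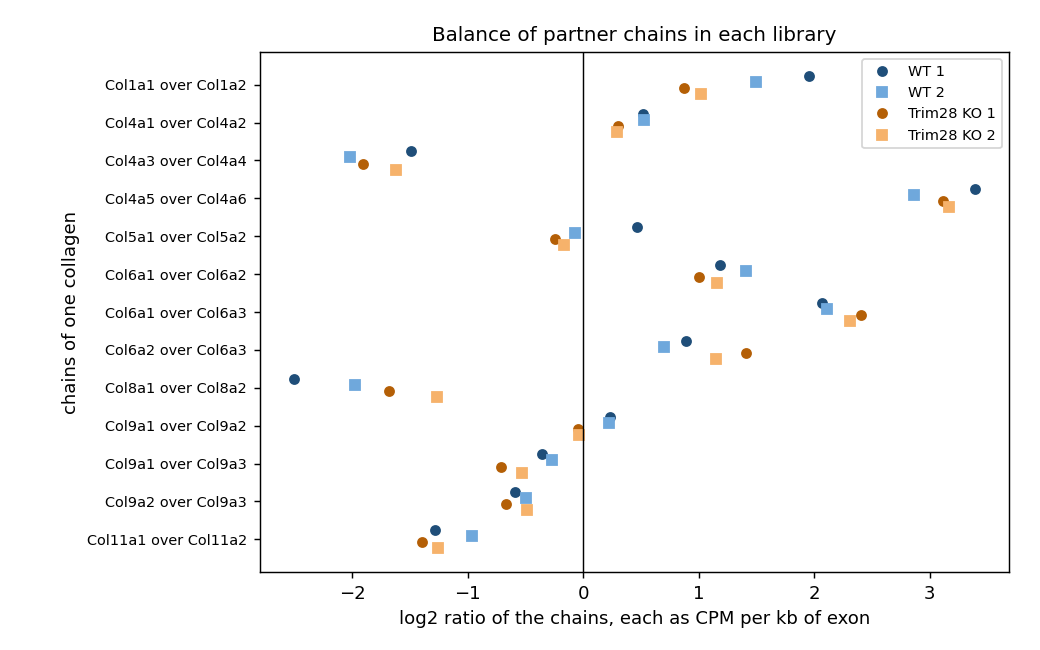
Log2 ratio of partner chains, each as CPM per kb of exon, in the 4 libraries (WT blue, Trim28 KO orange). The ratio of Col1a1 to Col1a2 lies lower in both Trim28 KO libraries, and that of Col4a1 to Col4a2 and Col9a1 to Col9a2 shifts by less but with little spread within a genotype.

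Genes that make, process and bind collagen moved in both directions. Of 57 such genes 55 were tested, of which 6 rose and 14 fell (36.4% called, median log2 fold change of 0.05). Among 20 folding and modification genes, 3 rose and 1 fell, a share called of 20%, near the 17.4% of all genes. Those that rose were Plod1, a lysyl hydroxylase (348 and 312 CPM in WT against 621 and 726 CPM in Trim28 KO, 1.03 ± 0.21, adjusted p = 0.00119), and the collagen galactosyltransferase genes Colgalt2 (1.32 ± 0.20, adjusted p = 5.70e-05) and Colgalt1 (0.68 ± 0.21, adjusted p = 0.0251). The prolyl hydroxylase subunit P4ha3 fell (-0.80 ± 0.21). Serpinh1, the collagen chaperone HSP47, stood at 5696 and 4851 CPM in WT against 5671 and 5812 CPM in Trim28 KO and was not called (0.12 ± 0.25). Of 8 secretion genes, only Creb3l1, a transcription factor that drives collagen I secretion in osteoblasts, was called, and it fell (-0.96 ± 0.25, adjusted p = 0.0176). Without Trim28 KO 1 the pathway genes had 4 rises and 7 falls, and the adjusted p was 0.0529 for Colgalt1, 0.269 for P4ha3 and 0.230 for Creb3l1. Colgalt1 was not called without WT 2 or Trim28 KO 2 either (adjusted p = 0.0932 and 0.156), nor Creb3l1 without WT 1 or Trim28 KO 2 (0.147 and 0.0726).

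Procollagen processing enzymes trim the ends of fibrillar chains before fibrils form. Of 7 tested, 4 fell and 1 rose (71.4% called, against 17.4% of all genes tested). Pcolce, which enhances this cleavage, stood at 534 and 455 CPM in WT against 168 and 253 CPM in Trim28 KO (-1.23 ± 0.22, adjusted p = 3.93e-04), and the proteinases Adamts2 (-1.19 ± 0.23), Adamts3 (-1.01 ± 0.20) and Tll1 (-2.99 ± 0.33) also fell, while Adamts14 rose (0.96 ± 0.19, adjusted p = 7.18e-04). Leaving out Trim28 KO 1, Adamts2 (adjusted p = 0.0524) and Adamts3 (0.0676) were not called. Of 5 crosslinking enzymes Loxl4 fell (-1.20 ± 0.23, adjusted p = 5.04e-04) and the others were not called, a share of 20%, near that of all genes. Of 7 tested genes of collagen breakdown and uptake, 4 fell and none rose (57.1% called): Mmp9, Mmp13, Fap and Ctsk. Mmp9 and Ctsk are also counted among the osteoclast markers and Mmp13 among the hypertrophic markers, so these counts are not separate. Ctsk was not called without Trim28 KO 1 or KO 2 (adjusted p = 0.0611 and 0.0981). Of 8 collagen receptors 3 fell and 2 rose (62.5% called). The integrin alpha subunits Itga2 (-1.57 ± 0.22), Itga10 (-0.75 ± 0.21) and Itga11 (-0.69 ± 0.20) fell, and the kinase Ddr1 (1.03 ± 0.19) and the leukocyte receptor Lair1 (1.62 ± 0.47) rose. Without Trim28 KO 1 the adjusted p was 0.274 for Itga10, 0.321 for Itga11 and 0.314 for Lair1. Calls were also lost for Itga10 without WT 2 (adjusted p = 0.0603), and without WT 1 for Itga11 (0.0633) and Lair1 (0.104). Lair1 had 9 to 45 counts per library and was not called by DESeq2 (adjusted p = 0.0920).

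Among 14 transcription factors known to act on collagen genes, 6 fell and 1 rose (50% called, against 17.4% of all genes tested). Sox9, Sox5 and Sox6, the activators of Col2a1, Col9a1 and Col11a2 in chondrocytes, were not called (-0.01 ± 0.22, 0.05 ± 0.20 and 0.07 ± 0.21), and their signs turned when single libraries were left out. Runx2, Runx3 (-1.09 ± 0.21), the osteoblast factor Sp7 (82.9 and 75.8 CPM in WT against 25 and 38.5 CPM in Trim28 KO, -1.32 ± 0.21) and the tendon factor Mkx (-1.12 ± 0.20) fell. Runx2, Sp7 and Mkx are also counted in the hypertrophic, osteoblast and tendon marker lists.

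Markers of other cell types moved beside the collagens. Over all genes tested 17.4% were called, 8.77% lower and 8.64% higher. Of 11 osteoblast markers, some of them shared with the hypertrophic list (Ibsp among them), 10 fell and none rose. Their sums were 1148 and 1220 CPM in WT against 245 and 381 CPM in Trim28 KO. The exception was Bglap (0.530 and 1.21 CPM in WT against 1.70 and 2.31 CPM in Trim28 KO), which was not called. Of 12 perichondrium, tendon and fibroblast markers, 6 fell and none rose, with sums of 11145 and 11165 CPM in WT against 7611 and 7071 CPM in Trim28 KO. All 7 tested osteoclast markers and all 6 tested red blood cell markers fell, and 6 of 8 macrophage markers rose (sums of 127 and 124 CPM in WT against 426 and 254 CPM in Trim28 KO). Skeletal muscle markers varied by library, with sums of 616 and 803 CPM in WT against 1169 and 448 CPM in Trim28 KO. Of the 7 tested 1 fell (14.3% called), Tnnt3, from 395 and 365 CPM in WT to 247 and 157 CPM in Trim28 KO (-0.91 ± 0.22). It was the only 1 below 0. The other 6 had fitted changes above 0 and were not called, and the median over the 7 was 0.58. Of 7 tested smooth muscle and pericyte markers 3 fell, and of 8 Schwann cell markers 3 fell and 2 rose. Epithelial markers were near 0, with sums of 2.16 to 6.51 CPM per library and 1 of 3 tested lower. Of the 5 tested adipocyte markers 1 rose (20% called, near the share of all genes). No listed marker found in the table was at 0 in all 4 libraries. The part of these cell types in the collagen values was not tested.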

How the data were processed

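The deposited table gives raw counts for 4 libraries, made by the authors with featureCounts 1.6.4. Per the file headers it ran in paired-end mode over the exons of GENCODE M23 (mm10), summed by gene name. No setting for strandedness or for reads with several hits appears there. The aligner is not given in the sources used here. Gene positions are those of GENCODE M21 (GRCm38), where all 44 collagen genes were found, and promoters those of RefSeq.

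Genes were kept by edgeR's filterByExpr (16639 genes), counts were scaled by TMM (factors of 0.939, 1.02, 1.04 and 1.00), and the genotypes were compared in R 4.3.3 with edgeR 4.0.16 (quasi-likelihood, robust, no covariate) and limma 3.58.1. The standard error is the size of the log2 fold change divided by the square root of F, and its 95% interval uses the fit's degrees of freedom. Levels per kilobase use the deposited exon length, which covers all annotated exons of a gene, so the order of genes on this scale is approximate.

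The members, lists and tests were chosen with earlier results of these data known. Every collagen could be named, with Trim28 and, of each other list, up to 4 members with the smallest p-values. Acan, Adamts2, Bglap, Lair1, Serpinh1, Sox5, Sox6, Sox9 and Xist fall outside that rule and were named after their values were seen. On simulated counts of 16314 genes, 100 were changed 2-fold and 99 were changed 4-fold. The steps called 56% of the 2-fold and 96% of the 4-fold changes, with 9 false among 160 calls. No library was a copy of another: chi-square per degree of freedom was 30.6 between the WT libraries and 24.6 between those of Trim28 KO. Alternatives were other scaling factors, filters and tools (DESeq2 1.42.0, limma-voom, edgeR's exact test, glmTreat), a replicate block and leaving out each library.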

Additional observations from a re-analysis of the deposited data

How the results depend on the processing

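With single libraries left out, 2 to 6 collagens were called higher and 4 to 14 lower, 4 to 8 pathway genes were called higher and 7 to 13 lower, and the log2 fold change of Trim28 ran from -2.07 to -1.79. Where 1 library remained in a genotype, it was assumed to vary like the other genotype. Against a minimum change of 2-fold, 0 collagens were called higher and 2 lower, and 0 pathway genes higher and 3 lower. DESeq2 called 11 pathway genes higher, against 6. Signs reversed only for genes that were not called. Scaled by library size alone, the log2 fold change was 0.050 for Col2a1, 0.048 for Col7a1 and 0.058 for Sox9, and with no filter on low counts it was 0.0042 for Col2a1, 0.0076 for Col7a1 and 0.013 for Sox9. With single libraries left out, the fitted change ran in Col2a1 from -0.23 to 0.28, Col11a2 from -0.35 to 0.15, Col9a2 from -0.34 to 0.050, Col9a3 from -0.31 to 0.13, Col8a2 from -0.63 to 0.014 and Col4a1 from -0.57 to 0.032. It ran in Col4a2 from -0.35 to 0.27, Col7a1 from -0.075 to 0.047, Col26a1 from -0.91 to 0.23, Sox9 from -0.18 to 0.23, Sox5 from -0.16 to 0.34, Sox6 from -0.16 to 0.39, Col11a1 from -0.61 to 0.030 and Col8a1 from -0.0071 to 0.85. The cause was not tested. Libraries with the same replicate number did not deviate together (correlation of -0.082). This single correlation cannot exclude a litter or batch shared by number, which the labels do not give. With a replicate block 5 collagens were called higher and 12 lower, and 8 pathway genes higher and 13 lower. The equal collagen counts hide a change of members, since Col16a1 lost its call (adjusted p = 0.0697) and Col24a1 gained one (0.0314), and among pathway genes Creb3l1 lost its call (0.0666). With 2 libraries per genotype, 56% of simulated 2-fold changes were called. Few genes were changed in that simulation and each gene varied on its own, so this share need not hold for these data. For Col4a3, Col6a4, Col6a5, Col19a1 and Col28a1 low counts limit what could be detected.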
